A study of Mus musculus with 10 samples.

Results

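The 9 genes described here are receptors, transcription factors and surface proteins that mark or shape macrophages: the colony-stimulating factor (CSF) receptor genes Csf1r, Csf2ra, Csf2rb and Csf2rb2, the transcription factor genes Spi1, Cebpb and Maf, and the surface receptor genes Cx3cr1 and Adgre1. They were named by symbol, and all 9 were found among the 36528 gene identifiers of the files. They were followed in macrophages purified from MC-38 tumours, which grow from a mouse colon carcinoma line, in C57Bl/6 mice. One group of mice had received anti-MerTK, an antibody to a receptor tyrosine kinase by which macrophages take up apoptotic cells. The other had received anti-gp120, which binds a viral protein absent from mice. Polyadenylated RNA was sequenced at 24 h, in 5 anti-MerTK and 5 anti-gp120 libraries. The labels give no age, sex or mouse number, so p-values measure the spread between these libraries, which may be technical.

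Macrophages depend on the CSF1 receptor for survival, and the cytokines CSF1 and IL-34 are its ligands. The receptor for granulocyte-macrophage CSF (GM-CSF) pairs its own alpha chain with a beta chain that is shared with other cytokines. The transcription factor PU.1, the product of Spi1, is required to make macrophages and binds regulatory DNA of many of their genes, including those of the CSF receptors.

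The libraries held 33159858 to 46108687 counted reads. The summed level of 9 macrophage markers, among them Csf1r and Adgre1, was 24571 to 26515 CPM (counts scaled to library size) in anti-MerTK libraries and 22419 to 27627 CPM in anti-gp120 libraries. Most of this sum came from C1qa, C1qb and C1qc, named after their values were seen. They averaged 7264, 6424 and 5577 CPM in anti-MerTK and 7106, 6264 and 5354 CPM in anti-gp120 libraries. Of the 9 macrophage markers edgeR called 1 higher, where 1.85% of all tested genes were. Mertk, the gene of the antibody's target, averaged 78.9 ± 4.96 CPM in anti-MerTK libraries and 91.1 ± 14.3 CPM in anti-gp120 libraries (SD, n = 5 each), a log2 difference of -0.21 that did not pass edgeR's test (adjusted p = 0.263). The antibody binds the protein, so this level does not measure blockade. The summed level of 10 monocyte markers was 424 to 679 CPM in anti-MerTK libraries and 209 to 485 CPM in anti-gp120 libraries. Of the 9 tested monocyte markers 1 was called higher by edgeR, where 1.85% of all tested genes were. In bulk RNA, fewer cells of a type and less RNA per cell cannot be told apart. Of the 10 T and NK cell markers 9 had a row in the files, and 8 of those stayed under 1 CPM in every library. Of 9 neutrophil markers 6 stayed under 1 CPM, and Ngp was at 0 in every library. Epithelial and tumour cell markers summed to 26.0 to 34.3 CPM in anti-MerTK libraries and 36.01 to 60.02 CPM in anti-gp120 libraries. The 1 tested gene of these 8 was called lower (1.38% of all tested genes were), and Krt20 and Cdx2 were at 0 throughout. Dendritic cell markers summed to 70.5 to 119 CPM in anti-MerTK libraries and 38.1 to 84.1 CPM in anti-gp120 libraries, with none of 6 tested called (3.22% of all tested genes were). Endothelial markers summed to 72.0 to 121 CPM in anti-MerTK and 84.6 to 134 CPM in anti-gp120 libraries. B cell markers summed to 17.6 to 30.6 and 19.8 to 40.2 CPM, and fibroblast markers to 6.39 to 42.4 and 7.66 to 31.0 CPM, in the same order of groups. No tested gene of these further lists was called. The part of these cells in the results below was not tested.

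Levels between genes were compared in RPKM, the authors' read counts scaled to gene length and library size. Over the 10 libraries Adgre1 was the highest of the 9 at 588 ± 65.6 RPKM, followed by Csf1r at 489 ± 56.3, Cx3cr1 at 320.0 ± 37.98 and Spi1 at 282 ± 38.9 RPKM (SD, n = 10). Cebpb averaged 109 ± 18.8 and Csf2ra 88.8 ± 32.6 RPKM. Csf2rb averaged 28.2 ± 5.85, Maf 25.9 ± 5.08 and Csf2rb2 23.2 ± 4.99 RPKM. The library ranges did not overlap at 3 steps of this order, between Csf1r and Cx3cr1, between Spi1 and Cebpb and between Csf2ra and Csf2rb. Between these steps the order was less firm. Adgre1 exceeded Csf1r in all 10 libraries although their ranges overlapped. Cx3cr1 exceeded Spi1 in 7 libraries, Cebpb exceeded Csf2ra in 8, Csf2rb exceeded Maf in 7 and Maf exceeded Csf2rb2 in 6, again with overlapping ranges. Reads that fit both Csf2rb and Csf2rb2 were not counted, so the levels of these genes may be too low beside the others. Adgre1 had a higher RPKM than 99.2% of the 13588 tested genes and Csf2rb2 than 78.9%, with the other 7 between them.

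**Figure D1:**
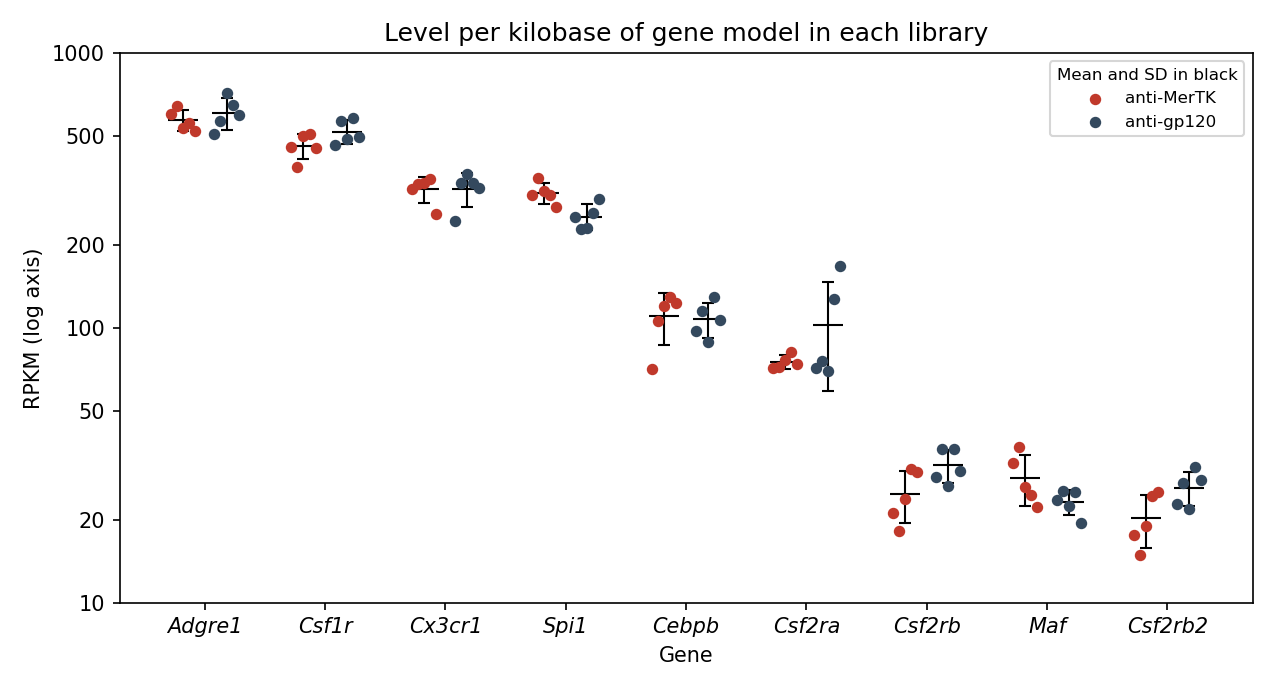
RPKM (log axis) of the 9 genes in each library, anti-MerTK in red on the left of each pair and anti-gp120 in dark blue on the right, with mean and SD in black (n = 5 each). The order from Adgre1 to Csf2rb2 is the order of the means over 10 libraries, and 2 anti-gp120 libraries stand at 128 and 168 RPKM for Csf2ra while the other 8 libraries lie between 69.8 and 81.9.

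The treatment comparison asks whether these lineage genes differed 24 h after the antibody against MerTK. None of the 9 passed edgeR's quasi-likelihood test with Benjamini-Hochberg adjustment over all 13588 tested genes at 0.05 (0 higher and 0 lower), where 3.22% of all tested genes were called (1.85% higher and 1.38% lower). At an unadjusted p under 0.05 there were 3 of the 9, Spi1, Csf2rb2 and Csf2rb, against 20.9% of all tested genes. The 2 groups of libraries overlapped for each of the 9, whereas they did not overlap for 5.97% of tested genes (3.26% higher and 2.71% lower). DESeq2 and limma-voom with quality weights each called 1 of the 9, Spi1, where they called 10.2% and 7.41% of all genes that received an adjusted p. Estimates were negative for the 4 CSF receptor genes, Cx3cr1 and Adgre1 and positive for the 3 transcription factors. The signs of Cx3cr1 and Cebpb turned under settings given with those genes. The median log2 fold change was -0.09 over the 9 and -0.01 over all tested genes. The count behind the 3.22% depends on single libraries. It was 438 genes with all libraries, 70 and 131 without anti-gp120 replicates 4 and 2, and 113, 154, 124 and 243 without anti-MerTK replicates 1, 2, 3 and 4. Those fits lowered the count, and over all 10 fits without a library it ran from 70 to 654.

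**Figure D2:**
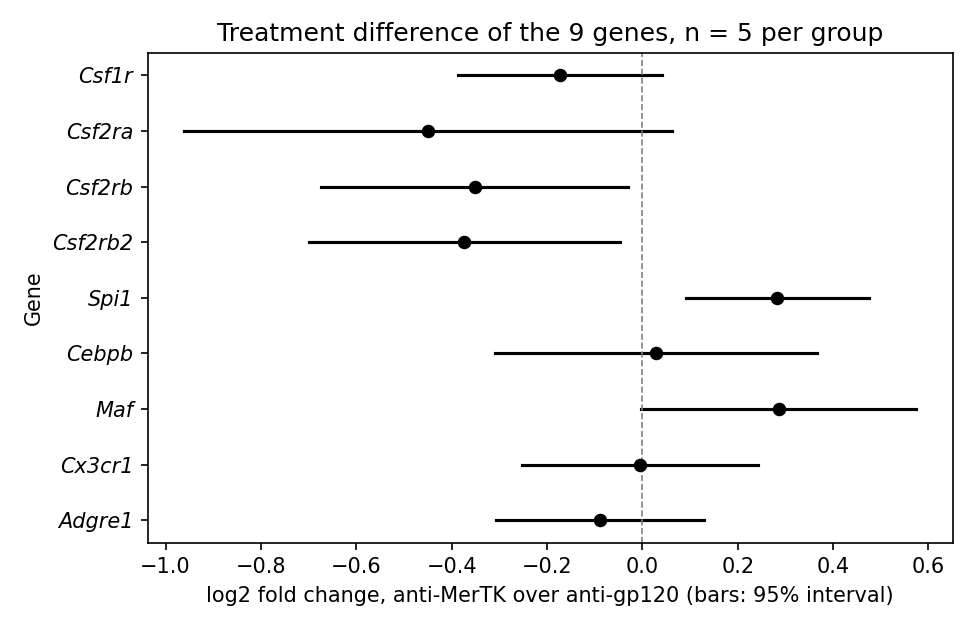
Estimated log2 fold change of anti-MerTK over anti-gp120 (points) with its 95% interval (bars) for the 9 genes, from edgeR on 5 libraries per group. The intervals of Spi1, Csf2rb and Csf2rb2 leave out 0, and that of Csf2ra is the widest, from -0.96 to 0.06.

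Csf1r encodes the receptor tyrosine kinase for CSF1 and IL-34 (Entrez 12978, GRCm38.p6 chromosome 18, 61105572 to 61131139). It had 454, 386, 498, 509 and 451 RPKM in the anti-MerTK libraries and 461, 565, 487, 579.6 and 494 RPKM in the anti-gp120 libraries. Each anti-MerTK library lay below the anti-gp120 mean and 3 of the 5 below every anti-gp120 library, while the groups overlapped. The means were 459.7 ± 48.6 RPKM in anti-MerTK and 517 ± 51.9 RPKM in anti-gp120 libraries (SD, n = 5 each). Its log2 fold change was -0.17 (95% interval -0.39 to 0.04, edgeR adjusted p = 0.336). It was -0.12 without anti-MerTK replicate 2 (edgeR adjusted p = 0.578) and -0.09 in the 8 libraries without anti-MerTK replicates 2 and 5 (edgeR adjusted p = 0.719). In GENCODE M21 873 bases of Csf1r exons, 15.1% of them, lie over exons of Hmgxb3 on the opposite strand, and whether reads were counted by strand is not given in the sources used here.

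Csf2ra encodes the alpha chain that binds GM-CSF (Entrez 12982, chromosome 19, 61217191 to 61228461). It had 71.6, 72.0, 76.1, 81.9 and 74.1 RPKM after anti-MerTK and 71.5, 75.7, 69.8, 128 and 168 RPKM after anti-gp120. The 5 anti-MerTK libraries and anti-gp120 replicates 1 to 3 thus spanned a narrow band, and anti-gp120 replicates 4 and 5 stood above it. The highest library was 1.14 times the lowest among anti-MerTK libraries and 2.40 times among anti-gp120 libraries, the widest spread of the 9 genes in that group. The log2 fold change was -0.45 (95% interval -0.96 to 0.06, edgeR adjusted p = 0.291). Leaving out replicate 4 of anti-gp120 gave -0.36 (edgeR adjusted p = 0.526), and leaving out replicate 5 gave -0.20 (edgeR adjusted p = 0.510). Anti-gp120 replicate 5 also had the lowest monocyte marker sum of the 10 libraries (209 CPM), and replicate 4 had 426 CPM. Dendritic cell markers differed between these libraries, with 38.1 CPM in replicate 4 and 84.1 CPM in replicate 5, the lowest and highest sums among anti-gp120 libraries. Csf3r, the receptor of granulocyte CSF, was highest in these libraries, at 89.5 CPM in replicate 4 and 103 CPM in replicate 5. Anti-MerTK replicates 2 and 4, in the narrow band of Csf2ra, came close to the former at 86.4 and 86.5 CPM. Csf3r makes up nearly all of the neutrophil marker sum of anti-gp120 replicates 4 and 5 (91.1 and 104 CPM). The other 8 neutrophil markers together had 1.62 and 1.496 CPM in those 2 libraries. The part of other cells in the Csf2ra level was not tested.

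The promoters of Csf2ra and of the beta chain gene Csf2rb2 are shown because PU.1 is known to act on CSF receptor genes. Spi1 had the smallest p of the 9 but was not called (edgeR adjusted p = 0.0999). Its log2 fold change was 0.28, against -0.45 for Csf2ra and -0.37 for Csf2rb2. A link between Spi1 and these genes was not tested. The promoter table used here, from RefSeq for GRCm38.p6, held a window, 250 bases before to 50 after the start, for 4 of the 9 genes (Cebpb, Cx3cr1, Csf2rb2 and Csf2ra). Capitals mark matches on either strand to GAGGAA, the core letters bound by PU.1, or to TTNNGNAA, the letters of a C/EBP site. The windows are chr19:61228369-61228668 and chr15:78305672-78305971, both on the minus strand and written 5′ to 3′.
Csf2ra: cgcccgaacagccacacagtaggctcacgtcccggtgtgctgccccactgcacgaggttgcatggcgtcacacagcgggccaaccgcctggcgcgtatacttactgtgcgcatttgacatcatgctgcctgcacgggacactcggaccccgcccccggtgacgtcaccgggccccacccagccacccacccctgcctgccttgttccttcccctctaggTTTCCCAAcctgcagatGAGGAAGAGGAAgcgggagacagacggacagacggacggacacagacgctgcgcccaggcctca
Csf2rb2: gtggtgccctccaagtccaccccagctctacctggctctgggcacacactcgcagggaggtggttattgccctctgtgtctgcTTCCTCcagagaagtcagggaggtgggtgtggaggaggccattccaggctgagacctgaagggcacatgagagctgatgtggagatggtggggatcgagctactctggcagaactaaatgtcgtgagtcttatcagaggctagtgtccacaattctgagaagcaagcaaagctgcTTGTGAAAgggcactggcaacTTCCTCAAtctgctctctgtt
In Csf2ra 2 copies of GAGGAA follow each other directly, the first at position -14 and the next at -8 from the start, and 1 match to TTNNGNAA begins at -31. The start used by the table for Csf2ra, at 61228418, lies 43 bases inside the gene as given above, so the matches at -31, -14 and -8 fall within those gene bounds. For Cebpb, Cx3cr1 and Csf2rb2 the start of the window is the end of the gene as given here. In Csf2rb2 the PU.1 letters occur on the opposite strand at -167 and 30, and TTNNGNAA matches at 9 and, over the same bases as GAGGAA, at 30. The windows of Cebpb and Cx3cr1 held neither. Of all 32851 promoter windows 28.3% held GAGGAA and 40.7% held TTNNGNAA. TGCTGA, letters within the site of Maf factors, was held by 19.5% and by none of these 4 windows. These are matches of letters in a short window and not measured binding.

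Csf2rb encodes the beta chain shared by the receptors for GM-CSF, IL-3 and IL-5 (Entrez 12983, chromosome 15, 78325800 to 78351001). It had 21.3, 18.2, 23.9, 30.6 and 29.9 RPKM after anti-MerTK and 28.7, 36.2, 26.5, 36.1 and 30.2 RPKM after anti-gp120. Anti-MerTK replicates 1 to 3 lay below every anti-gp120 library, and replicates 4 and 5 lay among them. Its log2 fold change was -0.35 (95% interval -0.67 to -0.03, edgeR adjusted p = 0.2003), from means of 24.8 ± 5.37 and 31.6 ± 4.41 RPKM after anti-MerTK and anti-gp120 (SD, n = 5 each).

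Csf2rb2, its neighbour, encodes a beta chain of the mouse that serves IL-3 alone (Entrez 12984, chromosome 15, 78282507 to 78305721). It had 17.7, 14.9, 19.0, 24.3 and 25.3 RPKM after anti-MerTK and 22.8, 27.2, 21.9, 31.1 and 27.8 RPKM after anti-gp120. The same 3 anti-MerTK libraries lay below all anti-gp120 libraries. The log2 fold change was -0.37 (95% interval -0.70 to -0.05, edgeR adjusted p = 0.1796).

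The separate values of these paralogs are uncertain, because reads were counted only where they aligned uniquely. Their coding sequences in GENCODE M21 were identical at 2503 of 2628 aligned bases (95.2%), and 18.4% of the 50-base stretches of the Csf2rb transcript and 19.5% of those of the Csf2rb2 transcript also occurred in transcripts of other genes, 892 of them shared by the pair. The longest identical run was 242 bases, at positions 2083 to 2324 of both coding sequences, and a read lying within it cannot be given to either gene.
Shared by Csf2rb and Csf2rb2: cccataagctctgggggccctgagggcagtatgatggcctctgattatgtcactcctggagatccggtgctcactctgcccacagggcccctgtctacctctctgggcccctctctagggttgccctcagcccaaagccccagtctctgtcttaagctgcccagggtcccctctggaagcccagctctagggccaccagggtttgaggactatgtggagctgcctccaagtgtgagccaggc
The 60 aligned coding bases in which the genes differed most, at 13 positions (capitals), begin at position 304 of Csf2rb and 307 of Csf2rb2, and reads over such a stretch can be told apart.
Csf2rb: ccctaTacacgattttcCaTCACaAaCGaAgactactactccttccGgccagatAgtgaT
Csf2rb2: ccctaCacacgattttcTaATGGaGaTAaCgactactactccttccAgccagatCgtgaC
Counted as 1 gene, the pair had 217 ± 47.2 CPM in anti-MerTK and 279 ± 38.9 CPM in anti-gp120 libraries (SD, n = 5 each). Its log2 fold change was -0.36 (95% interval -0.68 to -0.04, edgeR adjusted p = 0.185). A sum of counts has to give an estimate near those of the single genes, and it does not restore reads that fit both genes and were not counted. Csf2rb2 took 44.0% ± 0.683 of the reads of the pair in anti-MerTK and 44.4% ± 1.92 in anti-gp120 libraries (SD, n = 5 each, two-sided exact permutation p = 0.722).

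Ratios within a library do not depend on scaling between libraries. The log2 ratio of Csf2rb plus Csf2rb2 to Csf2ra was -0.77 ± 0.27 in anti-MerTK and -0.74 ± 0.50 in anti-gp120 libraries (SD, n = 5 each, exact permutation p = 0.944). Its level may be too low in both groups, since reads that fit both beta chain genes were not counted. The log2 ratio of Csf1r to Csf2ra was 2.61 ± 0.11 in anti-MerTK and 2.43 ± 0.56 in anti-gp120 libraries (SD, n = 5 each, exact permutation p = 0.579). Adjusted over the 3 ratios each p was 0.944. The Csf1r ratio stood between 2.42 and 2.71 in the anti-MerTK libraries, and was 2.18 and 1.56 in anti-gp120 replicates 4 and 5, the libraries of high Csf2ra.

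Spi1 (Entrez 20375, chromosome 2, 91082374 to 91115759) came nearest to the threshold. It had 303, 351, 313, 304 and 275 RPKM after anti-MerTK and 253, 229, 230.4, 262 and 295 RPKM after anti-gp120. Of the anti-MerTK libraries 4 lay above every anti-gp120 library, and all 5 lay above the anti-gp120 mean. The means were 309 ± 27.5 RPKM in anti-MerTK and 254 ± 27.0 RPKM in anti-gp120 libraries (SD, n = 5 each). The log2 fold change was 0.28 (95% interval 0.09 to 0.48), an estimated 1.22-fold, and did not pass in edgeR (adjusted p = 0.0999). It passed with DESeq2 (adjusted p = 0.0295), with limma-voom (adjusted p = 0.0455) and in edgeR without anti-gp120 replicate 5 (adjusted p = 0.0483), and over its 21 alternatives the adjusted p lay between 0.0295 and 0.216. The log2 fold change stayed between 0.23 and 0.34 in all of them.

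Cebpb encodes C/EBP beta, a factor of inflammatory and myeloid gene expression (Entrez 12608, chromosome 2, 167688915 to 167690432). It had 71.1, 106, 121, 129.9 and 123 RPKM after anti-MerTK and 97.6, 115, 89.1, 129.6 and 107 RPKM after anti-gp120. The groups overlapped, with anti-MerTK replicate 1 below all other libraries. Its log2 fold change was 0.03 (95% interval -0.31 to 0.37, edgeR adjusted p = 0.935), and its sign was negative with limma-voom, in the 8 libraries without anti-MerTK replicates 2 and 5 and in 5 of the 10 fits without a library. Exons of Tmem189 on the opposite strand lie over 312 of its bases (20.7%).

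Maf encodes c-Maf, a factor of the tissue-resident macrophage state (Entrez 17132, chromosome 8, 115703253 to 115706894). It had 32.2, 36.9, 26.2, 24.7 and 22.3 RPKM after anti-MerTK and 23.7, 25.5, 22.5, 25.3 and 19.5 RPKM after anti-gp120. Anti-MerTK replicates 1 to 3 lay above every anti-gp120 library, and replicates 4 and 5 among them. The log2 fold change was 0.29 (95% interval -0.00198 to 0.57, edgeR adjusted p = 0.242). Leaving out anti-MerTK replicate 2 lowered the estimate to 0.18 (edgeR adjusted p = 0.460).

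Cx3cr1 encodes the receptor of the chemokine fractalkine (Entrez 13051, chromosome 9, 120048683 to 120068296). It had 321, 334, 335, 349 and 259 RPKM after anti-MerTK and 245, 336, 362, 337 and 322 RPKM after anti-gp120. In each group 1 library lay well below the other 4, and the groups overlapped over nearly their whole range. The means were 319.7 ± 35.4 and 320.4 ± 44.6 RPKM after anti-MerTK and anti-gp120 (SD, n = 5 each). The estimated log2 fold change was -0.00444 (95% interval -0.25 to 0.24, edgeR adjusted p = 0.985), an interval that leaves out changes beyond 0.25 in either direction. Its sign was positive with upper quartile normalization, with limma-voom, on the log2 RPKM scale, in the same 8 libraries and in 4 of the 10 fits without a library.

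Adgre1 encodes an adhesion G protein-coupled receptor known as the F4/80 antigen, by which mouse macrophages are often recognised (Entrez 13733, chromosome 17, 57358581 to 57483529). It had 600.4, 641, 532, 557 and 521 RPKM after anti-MerTK and 506, 568, 718, 644 and 595 RPKM after anti-gp120. The anti-MerTK values lay within the anti-gp120 range. The log2 fold change was -0.09 (95% interval -0.31 to 0.13, edgeR adjusted p = 0.651).

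**Figure D3:**
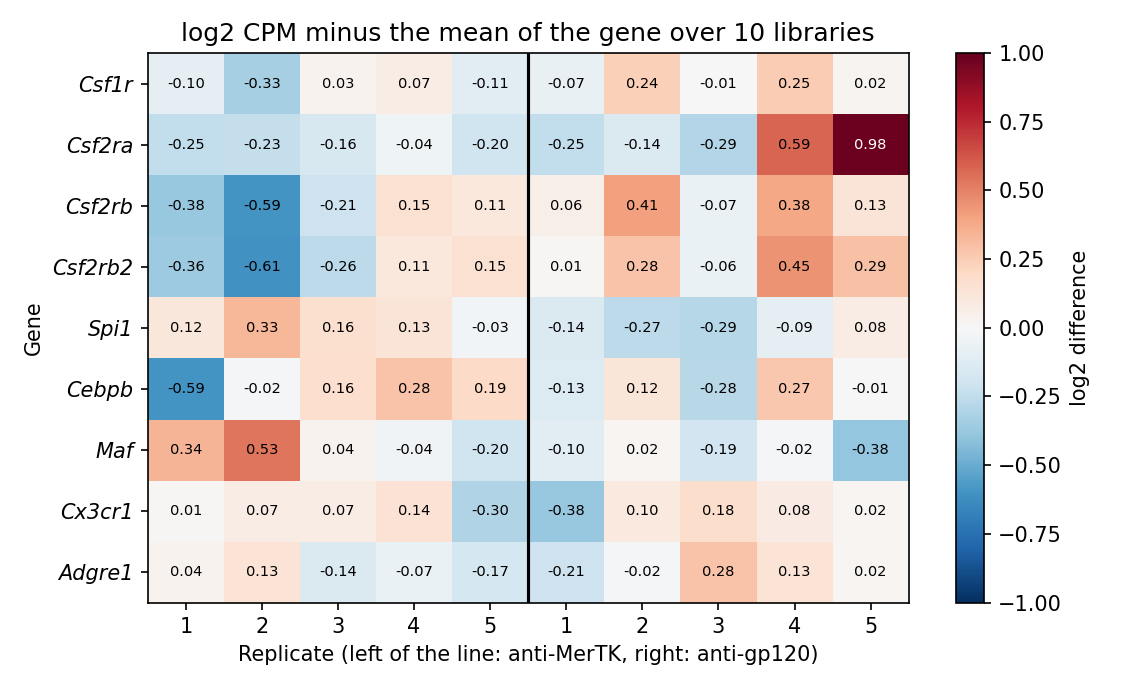
Log2 CPM of each gene minus its mean over 10 libraries, one column per library, anti-MerTK left of the line and anti-gp120 right of it. Anti-MerTK replicate 2 had the lowest Csf2rb (-0.59) and Csf2rb2 (-0.61) and the highest Spi1 (0.33) and Maf (0.53), and anti-gp120 replicate 5 had the highest Csf2ra (0.98).

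Whether the genes moved together between libraries was compared apart from treatment. Deviations of log2 CPM from the group means were compared over the 10 libraries for the 36 pairs of genes. Of these pairs 1 passed, Csf2rb with Csf2rb2, with Pearson r = 0.95 (exact permutation within groups, adjusted p = 0.0325 over 36 pairs) and Spearman rho = 0.92 (exact permutation, adjusted p = 0.0900). Without the 2 libraries farthest from the Csf2rb median r was 0.90 (exact permutation, adjusted p = 0.183), where the 720 rearrangements left allow a lone pair no adjusted p below 0.05. The pair shares the sequence printed above, and the part of shared reads in this correlation was not tested. The other 35 pairs had r between -0.64 and 0.79, with a negative r for 14 pairs.

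The genes most like each of the 9 in these deviations, among 10174 named genes, are given as a description, with Pearson r over 10 libraries chosen as the highest and hence with no test. For Csf1r they were Bend3 (r = 0.96, rho = 0.96) and Man2a2 (r = 0.95, rho = 0.89), and for Csf2ra Gpatch2l (r = 0.93, rho = 0.78) and Nfkbib (r = 0.92, rho = 0.87). For Csf2rb they were Bcl2l11 (r = 0.96, rho = 0.93) and Plxdc2 (r = 0.96, rho = 0.99), and for Csf2rb2 Ankzf1 (r = 0.98, rho = 0.95) and Gfpt1 (r = 0.97, rho = 0.95). For Spi1 they were Mvp and Ilrun (r = 0.96 each), for Cebpb Cul1 and Ppp2r5a (r = 0.95 and 0.91) and for Maf Zkscan8 and Itgam (r = 0.93 and 0.92). For Cx3cr1 they were Txlnb and Zeb1 (r = 0.93 and 0.92) and for Adgre1 Ctbs and Dram2 (r = 0.97 and 0.93). Of these 18 genes Gfpt1 alone passed edgeR's test of treatment, where 3.22% of all tested genes did. Its log2 fold change was -0.40 (SE 0.08, edgeR adjusted p = 0.0251).

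Genes around the 9 were counted in 5 lists. Of 11 ligands and related receptor chains 5 were tested and none was called (3.22% of all tested genes were), with a median log2 fold change of 0.07. Csf1, the ligand of the CSF1 receptor, had 5.53, 6.17, 6.64, 4.74 and 5.30 CPM after anti-MerTK and 4.92, 4.54, 3.20, 2.90 and 4.44 CPM after anti-gp120. The groups overlapped by 1 anti-MerTK library. Its log2 fold change of 0.50 (SE 0.16) did not pass in edgeR (adjusted p = 0.103) and passed with DESeq2 (adjusted p = 0.0345). Il3ra, the alpha chain that binds IL-3, had 36.4 ± 7.66 and 27.0 ± 5.18 CPM after anti-MerTK and anti-gp120 (SD, n = 5 each, log2 fold change 0.43, edgeR adjusted p = 0.137) and passed without anti-gp120 replicate 5 (adjusted p = 0.0468). Csf3r had a log2 fold change of -0.10 and Kit, the stem cell factor receptor, of -0.77 at 0.853 and 1.45 CPM after anti-MerTK and anti-gp120 (edgeR adjusted p = 0.757 and 0.416). Kit passed with limma-voom (log2 fold change -1.36, adjusted p = 0.0434) and in edgeR without anti-MerTK replicate 5 (-1.56, adjusted p = 0.0265). Il34, Csf2, Il5 and Flt3 were too low to test, each with group means under 1 CPM, and Il3 and Il5ra had a count of 0 in every library (these 6 were named after their values were seen).

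Among 25 genes that carry or restrain CSF receptor signals 0 were called higher and 1 lower, against 1.85% and 1.38% of all tested genes, with a median log2 fold change of -0.03. Cbl, a ubiquitin ligase that removes activated receptors including the CSF1 receptor, had 66.5, 61.4, 58.7, 65.7 and 60.1 CPM after anti-MerTK and 73.3, 104, 75.4, 115 and 84.0 CPM after anti-gp120. Every anti-MerTK library lay below every anti-gp120 library. In this list the groups did not overlap for 2 of the 25 genes, where they did not for 5.97% of all tested genes. Genes were named by smallest p, which favours such a separation. Cbl fell by 0.53 on the log2 scale (SE 0.12, edgeR adjusted p = 0.0337). Its call was lost when anti-gp120 replicate 2 or 4, or anti-MerTK replicate 1, 2, 3 or 4, was left out (adjusted p between 0.0573 and 0.0937), on log2(RPKM + 1) (limma adjusted p = 0.0513) and in the 8 libraries without anti-MerTK replicates 2 and 5 (adjusted p = 0.130). Dok2, an adaptor that dampens kinase signals, had a log2 fold change of 0.70 (edgeR adjusted p = 0.150) and passed with DESeq2 (adjusted p = 0.0318). Pik3r1, the regulatory subunit of phosphoinositide kinases, had -0.29 (edgeR adjusted p = 0.142), with groups that did not overlap.

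Of 40 further macrophage transcription factors 36 were tested and none was called (3.22% of all tested genes were), over a median log2 fold change of 0.01. The 4 of smallest p, Egr1, Runx2, Cebpd and Nr1h3, passed with DESeq2, which called 10.2% of all genes that received an adjusted p. Egr1, an immediate early factor, stood at 259 ± 46.5 CPM in anti-MerTK and 161 ± 39.0 CPM in anti-gp120 libraries (SD, n = 5 each), with a log2 fold change of 0.68 (edgeR adjusted p = 0.0559, DESeq2 adjusted p = 0.00203). Egr1 passed in 6 of 21 alternatives, 4 of them fits in edgeR with adjusted p between 0.0342 and 0.0497. Runx2, Cebpd and Nr1h3 had log2 fold changes of -0.63, 0.49 and 0.64 (edgeR adjusted p = 0.0741, 0.0821 and 0.0907). Cebpa and Irf8, named after their values were seen, had log2 fold changes of -0.23 and 0.05 (edgeR adjusted p = 0.482 and 0.840).

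Of 24 surface and lysosomal macrophage genes 2 were called higher and 0 lower (1.85% and 1.38% of all tested genes were), with a median log2 fold change of -0.09. Siglec1, the sialic acid receptor CD169, had 699.6, 768, 495, 513 and 400.3 CPM after anti-MerTK and 355, 273, 209, 314 and 292 CPM after anti-gp120. It rose by 0.995 on the log2 scale (SE 0.19, edgeR adjusted p = 0.0212). Fcgr1, the high-affinity Fc gamma receptor, rose by 0.64 on the log2 scale (SE 0.13, edgeR adjusted p = 0.0247). In this list the groups did not overlap for 3 of the 24 genes, where they did not for 5.97% of all tested genes. For both Siglec1 and Fcgr1 each anti-MerTK library exceeded each anti-gp120 library. Both calls were lost when anti-gp120 replicate 2 or 4 or anti-MerTK replicate 1 was left out, and that of Fcgr1 also without anti-MerTK replicate 3 (adjusted p between 0.0554 and 0.0781). Cd68, a lysosomal membrane protein, had a log2 fold change of 0.19 (SE 0.07, edgeR adjusted p = 0.122), with groups that did not overlap, and passed with DESeq2 (adjusted p = 0.0112).

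In the fractalkine and monocyte chemokine list 1 of 8 was called higher and 0 lower, where 1.85% and 1.38% of all tested genes were, with a median log2 fold change of 0.29. Ccl12, a ligand of the monocyte receptor CCR2 in the mouse, had 480.3, 712, 656, 415 and 479 CPM after anti-MerTK and 343, 147, 248, 187 and 230.2 CPM after anti-gp120. It rose by 1.25 on the log2 scale (SE 0.22, edgeR adjusted p = 0.0198), and the groups did not overlap. Leaving out anti-gp120 replicate 4 or anti-MerTK replicate 3 ended the call (adjusted p = 0.0655 and 0.0515), as did the fit of 8 libraries (adjusted p = 0.0604). Ccl2, Ccl7 and Ccr2 had log2 fold changes of 1.18, 1.39 and 0.55 (edgeR adjusted p = 0.0543, 0.0695 and 0.165). The Ccl2 groups did not overlap either, which held for 2 of the 8 genes of this list and 5.97% of all tested genes. Of 21 alternatives Ccl2 passed in 6 and Ccl7 in 5, among them DESeq2 (adjusted p = 0.00736 and 0.0151), while Ccr2 passed in none. Beside these stands the monocyte marker sum given above, which was higher in anti-MerTK libraries by the medians (542 CPM after anti-MerTK, 426 CPM after anti-gp120) and whose list holds Ccr2, and its part in them was not tested. Cx3cl1, the ligand of the Cx3cr1 product, had group means of 1.29 and 1.60 CPM after anti-MerTK and anti-gp120 and did not pass (edgeR adjusted p = 0.544, named after its values were seen).

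**Figure D4:**
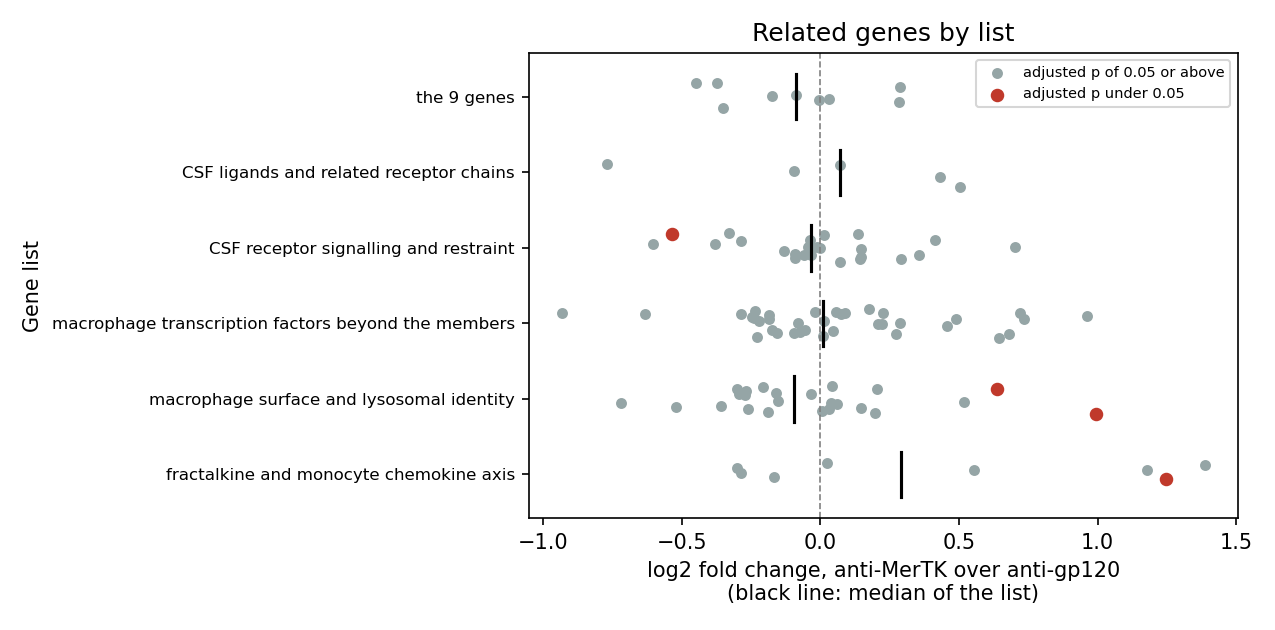
Log2 fold change of anti-MerTK over anti-gp120 for each tested gene of the 9 and of 5 related lists (height within a row is jitter), red where edgeR's adjusted p was under 0.05, with the list median as a black line. The 9 genes span -0.45 to 0.29 with none in red, and the 4 red points are Cbl, Siglec1, Fcgr1 and Ccl12.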

How the data were processed

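The authors aligned reads with GSNAP to GRCm38, per the submitters' processing notes. The deposited counts are reads aligning uniquely to each gene model, and the deposited RPKM values include the authors' library size factors, as the file headers say. For the annotation, the counting tool and its strand setting the status is: not given in the sources used here. The RPKM values equalled counts times a gene and a library factor within a relative deviation of 4.4e-14.

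Of 36528 identifiers 31049 were named from RefSeq's table (GRCm38.p6) and 78 from GENCODE M21, and the 5401 unnamed ones (2.14% to 2.65% of counts) stayed in library sizes and tests. No 2 libraries agreed within sampling noise (smallest chi-square per degree of freedom 27.3).

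The main test was edgeR 4.0.16 (limma 3.58.1, R 4.3.3), quasi-likelihood with robust dispersions, TMM, filterByExpr (13588 genes) and treatment as the only term. Its p-values are two-sided, and SEs and 95% intervals come from the F statistic. Counts were simulated for these 13588 genes in this comparison, in 3 runs with 200 changed genes per run. The share recovered was 93.3% at 2-fold and 75% at 1.5-fold, with 4.36% false calls. Smaller changes, such as the estimated 1.22-fold of Spi1, were not simulated, so these shares do not give the power for changes of that size. In the real data 70 to 654 genes were called with a library left out. Whether the simulated counts depend on single libraries in this way was not tested. CPM uses TMM library sizes. Ratios were tested over all 252 assignments (smallest p 0.00794), correlations over 14400 rearrangements within groups, two-sided. The alternatives were RLE, upper quartile and the authors' size factors, no filter, 5 CPM in 5 libraries, DESeq2 1.42.0, limma-voom with quality weights (limma-voom in the text), limma on log2(RPKM + 1) and log2(RPKM + 0.1), 1 surrogate variable (sva 3.50.0), each library left out, and 8 libraries without anti-MerTK replicates 2 and 5, which earlier results set apart.

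The 9 genes, the lists, the tests and the alternatives were chosen with earlier results of these data known. Named genes are the 9, Mertk, the 4 of smallest p per list and the 2 most alike per gene (mean log2 CPM of at least 1), with exceptions stated, and 1 gene that this rule names is not reported here. Replicate numbers follow deposition order and pair nothing.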

Additional observations from a re-analysis of the deposited data

How the results depend on the processing

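None of the 9 genes changed its call with RLE, upper quartile or the authors' size factors, with no filter, with 5 CPM in 5 libraries, on the RPKM scale or with 1 surrogate variable. With DESeq2 and with limma-voom 1 of the 9 passed, Spi1, at log2 fold changes of 0.29 and 0.28, and 0 to 1 passed with a library left out. The sign turned for Cebpb with limma-voom (-0.0494) and in 8 libraries (-0.0066), and for Cx3cr1 with upper quartile normalization (0.00926), limma-voom (0.0425), RPKM plus 1 (0.00196) or plus 0.1 (0.00199) and in 8 libraries (0.0651). The cause was not tested. With a library left out, log2 fold changes ran from -0.21 to -0.12 for Csf1r, -0.56 to -0.20 for Csf2ra, -0.44 to -0.26 for Csf2rb, -0.46 to -0.28 for Csf2rb2, -0.45 to -0.27 for the pair as 1 gene, 0.23 to 0.34 for Spi1, -0.0399 to 0.15 for Cebpb, 0.18 to 0.36 for Maf, -0.0888 to 0.0628 for Cx3cr1 and -0.15 to -0.02 for Adgre1. In the same fits the difference in Csf2rb2 share ran from -0.976 to 0.292 percentage points, that of the beta to alpha log2 ratio from -0.22 to 0.10 and that of the Csf1r to Csf2ra log2 ratio from -0.0359 to 0.30. Genes called over all tested genes numbered 438, and 1168 with DESeq2, 1007 with limma-voom, 204 in 8 libraries and 70 to 654 with a library left out. Of all genes that received an adjusted p the main fit called 3.22%, DESeq2 10.2% and limma-voom 7.41%, in either direction. Of the 98 tested genes in the 5 lists 3 were called higher in the main fit, where 1.85% of all tested genes were. List genes called higher numbered 5 with the 5 CPM filter, 13 with DESeq2, 8 with limma-voom, 11 with 1 surrogate variable and 0 to 9 with a library left out. List genes called lower numbered 1 (1.38% of all tested genes were), and 2 with DESeq2, 3 with limma-voom, 0 on log2(RPKM + 1) and 0 to 2 with a library left out. Calls over all genes also rose with DESeq2 and limma-voom, as given above. For the 5 CPM filter and the surrogate variable the share of all genes is not given here. These counts are therefore no result about the lists. Without the 2 libraries farthest from the median 0 of 36 pairs passed, but the 576 or 720 rearrangements left give a lone pair an adjusted p of 0.05 or more, so this count says nothing of stability. No paired analysis was possible because the replicate numbers were given in deposition order and the labels name no shared mouse, litter or day.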
